A study of Arabidopsis thaliana with 8 samples.

Results

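MeJA responses that reached 2-fold in only 1 of the genotypes *Ler* and *hy5-1* were collected from 8 Affymetrix ATH1 arrays. Of 22746 probe sets analysed, 807 met the rule. The seedlings were either wild-type *Ler* or *hy5-1*, a mutant of the bZIP transcription factor HY5 carried in the *Ler* background. They were 4 days old and harvested whole. They had been kept in darkness or under continuous far-red (FR) light (1.5 μmol m-2 s-1), and the medium held either 50 μM MeJA or none. With 1 array for each of the 8 combinations, no value has a replicate, and precision is limited by this number of arrays. For each probe set, a MeJA ratio was taken as the log2 value (base 2 is assumed) with 50 μM MeJA minus that with 0 μM, in *Ler* and in *hy5-1*, under FR light and in darkness. These 4 ratios share no array with one another. A response was called lost when both *Ler* ratios reached 1 (2-fold) in the same direction, under FR light and in darkness, while both *hy5-1* ratios stayed between -1 and 1. It was called gained when the genotypes were exchanged. The 4 resulting sets held 166 lost raised, 173 lost lowered, 139 gained raised and 329 gained lowered probe sets, which are 0.73%, 0.761%, 0.611% and 1.45% of those analysed. "Raised" and "lowered" stand for the direction of the ratio with MeJA. The ratios chose the members and are given as a description, without a test.

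Jasmonates are lipid-derived hormones that seedlings and leaves use to switch on defence, secondary metabolism and wound responses and to restrain growth. The receptor COI1 binds the active conjugate and marks the JAZ repressors for degradation, which frees MYC factors to activate jasmonate target genes. HY5 promotes the light-grown form of the seedling, accumulates in light and is degraded in darkness through COP1, and binds G-box and related ACGT-containing promoter elements, some of which MYC factors bind as well.

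Each probe set's values were centred within the 4 arrays of a light, so a ratio between arrays of 1 light can be read, but not a transcript's level nor its difference between FR light and darkness. Whole seedlings hold many cell types, and fewer cells of a type and less RNA per cell cannot be told apart. No level of any organ marker could be checked on centred values. Of the 4 reference genes that could be named, none had a MeJA ratio past 2-fold in either genotype or light. None of the 64 control features of the array met the rule, where 807 of 22746 analysed probe sets did. With so few controls, this count is near that share.

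Genes of the jasmonate and light pathways were looked up first. Of 185 genes in 13 lists (jasmonate synthesis, signalling and response, glucosinolates, anthocyanins, light signalling, chlorophyll, elongation growth, cold and ABA, organ markers and reference genes), 37 had a probe set paired with that gene alone, and 0 of the 37 belonged to any of the 4 sets, where 3.69% of all probe sets paired with 1 gene did. So few could be paired that this count is near that share. The array annotation does not list 8730 of the 22746 probe sets, so the other listed genes may be on the array but could not be looked up. The lists of jasmonate synthesis, signalling and response had 3, 2 and 7 genes with such a pairing. The 2 signalling genes were *MYC3* and *MYC4*, and no *JAZ* gene was among the 37. Of these 37, 11 had *Ler* ratios of at least 2-fold in the same direction in both lights, and all 11 also had *hy5-1* ratios of at least 2-fold in that direction in both lights. *JRG21*, which encodes a jasmonate-inducible 2-oxoglutarate-dependent oxygenase that inactivates jasmonic acid, had log2 ratios of 8.28 and 8.49 in *Ler* under FR light and in darkness, and of 8.02 and 8.98 in *hy5-1*. *THI2.1*, a thionin gene used as a jasmonate marker, had ratios of 4.58 and 8.51 in *Ler* and of 5.87 and 7.04 in *hy5-1*. *BCAT4*, which starts the chain elongation of methionine for glucosinolates, had ratios of 6.01 and 6.04 in *Ler* and of 5.59 and 4.72 in *hy5-1*. Each of these ratios was therefore far past the limit of the rule in both genotypes. *OPCL1*, which activates a precursor in the peroxisomal steps of jasmonate synthesis, had ratios of 1.24 and 2.17 in *Ler* and of 2.70 and 2.83 in *hy5-1*. *DFR*, of anthocyanin synthesis, had ratios of 4.66 and 1.23 in *Ler* and of 4.37 and 1.54 in *hy5-1*. *HYH*, the close homologue of HY5, had ratios of -0.71 and -1.64 in *Ler* and of -1.09 and -0.92 in *hy5-1*, and thus passed 2-fold in 1 light in each genotype. Over the whole array, 551 probe sets were raised and 340 lowered at 2-fold in all 4 ratios.

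Within each set, the responding genotype had similar median ratios in both lights. The lost raised probe sets had median log2 ratios of 1.74 under FR light and 1.72 in darkness in *Ler*, against 0.26 and 0.16 in *hy5-1*. The lost lowered probe sets had medians of -1.52 and -1.57 in *Ler*, against -0.35 and -0.36 in *hy5-1*. In the gained raised set the medians were 0.32 and 0.44 in *Ler* and 1.43 and 1.61 in *hy5-1*. In the gained lowered set they were -0.36 and -0.38 in *Ler* and -1.48 and -1.50 in *hy5-1*. The non-responding genotype thus had a median on the same side of 0 as the responding one in all 4 sets. Its ratios pointed the same way as the response in both lights in 67 of the 166 lost raised probe sets, in 78 of 173 lost lowered, in 66 of 139 gained raised and in 186 of 329 gained lowered. In 29, 23, 21 and 43 members neither ratio pointed that way: each was on the opposite side or exactly 0.

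**Figure D1:**
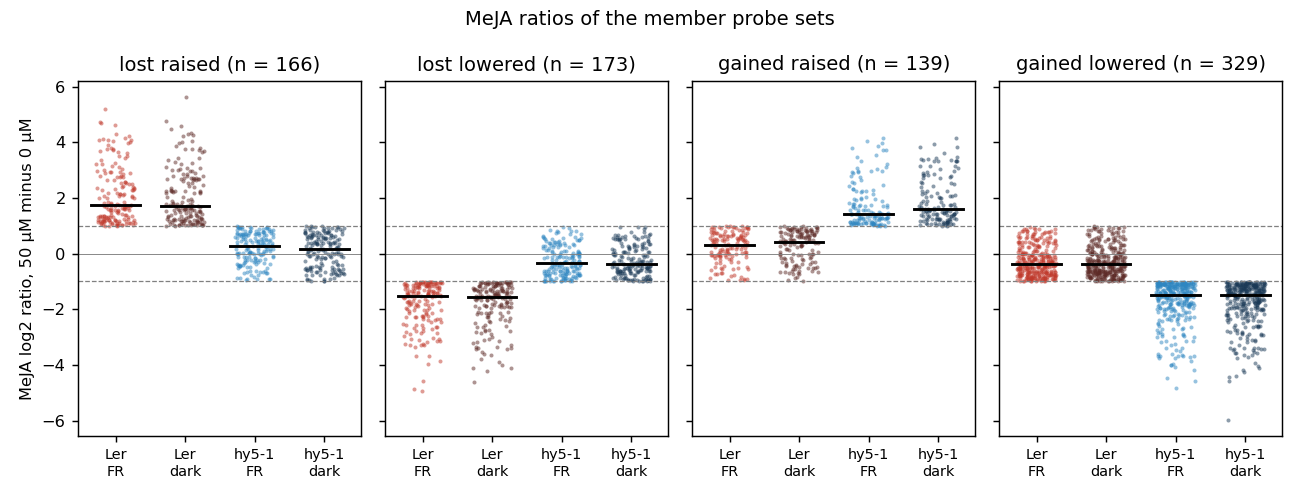
MeJA log2 ratio (50 μM minus 0 μM, vertical axis) of every member in *Ler* and *hy5-1* under FR light and in darkness, with 1 point per probe set, the median as a black bar and the 2-fold limits as dashed lines. The empty bands and the clean edges at 1 and -1 come from the rule, and the medians of the responding genotype lie between 1.43 and 1.74 from 0.

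The size of the amplitude difference varied widely among members. It was scored as the smaller, over FR light and darkness, of the responding genotype's ratio minus the other's, signed in the direction of the response. The median score was 1.204 in the lost raised, 1.02 in the lost lowered, 0.93 in the gained raised and 0.89 in the gained lowered set, and the highest scores were 4.3998, 3.93, 3.56 and 3.33. A score of at least 1 was found in 103 of 166, 90 of 173, 66 of 139 and 143 of 329 members. A score below 0.5 was found in 27, 44, 36 and 72, and in these members the genotypes lay on different sides of the limit with little between them in at least 1 light. Just inside the limit of the responding genotype, AT2G23450 (lost raised) had *Ler* ratios of 1.01 and 1.05, AT1G67360 (lost lowered) of -1.14 and -1.01, and AT3G15720 (gained raised) and AT2G15695 (gained lowered) had *hy5-1* ratios of 1.27 and 1.0003 and of -1.002 and -1.04. Just outside it, AT1G36430 had *Ler* ratios of 3.57 and 0.993, AT5G57120 of -0.9988 and -1.14, and AT1G12620 and AT1G27430 had *hy5-1* ratios of 0.9976 and 1.69 and of -1.27 and -0.9998.

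The rule asks for the same outcome under FR light and in darkness, which were read by separate arrays, and the share of probe sets that gave it was small. Under FR light alone, 1238 probe sets met the condition for lost raised, and 166 of them (13.4%) met it in darkness as well, whereas 124 (10.02%) met in darkness the condition with the genotypes exchanged. Of all probe sets, 4.48% met the lost raised condition in darkness. The exchanged condition was met in darkness by 5.49% of all. For lost lowered, 173 of 1203 (14.4%, against 5.70% of all) met the condition again in darkness and 156 (13.0%, against 8.73%) the exchanged one. For gained raised these counts were 139 (13.7%, against 5.49%) and 106 (10.5%, against 4.48%) of 1014. For gained lowered they were 329 (20.8%, against 8.73%) and 162 (10.3%, against 5.70%) of 1578. Taken from the dark arrays, the members were 16.3% of 1020, 13.3% of 1297, 11.1% of 1248 and 16.6% of 1986.

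Other pairings of the 4 ratios gave counts of the same order. Exactly 2 of the 4 ratios raised at 2-fold, with the other 2 within it, were found in 166 probe sets for the *Ler* pair and 139 for the *hy5-1* pair, in 142 for both genotypes under FR light and in 204 for both in darkness. The crossed pairs, which share neither genotype nor light, gave 124 (*Ler* under FR light with *hy5-1* in darkness) and 106 (*Ler* in darkness with *hy5-1* under FR light). For lowered ratios, the *Ler* pair gave 173 and the *hy5-1* pair 329, both genotypes gave 226 under FR light and 332 in darkness, and the crossed pairs gave 156 and 162. The gained lowered count of 329 moved to 234 after quantile normalization. No count was tested, because probe sets are not replicates.

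**Figure D2:**
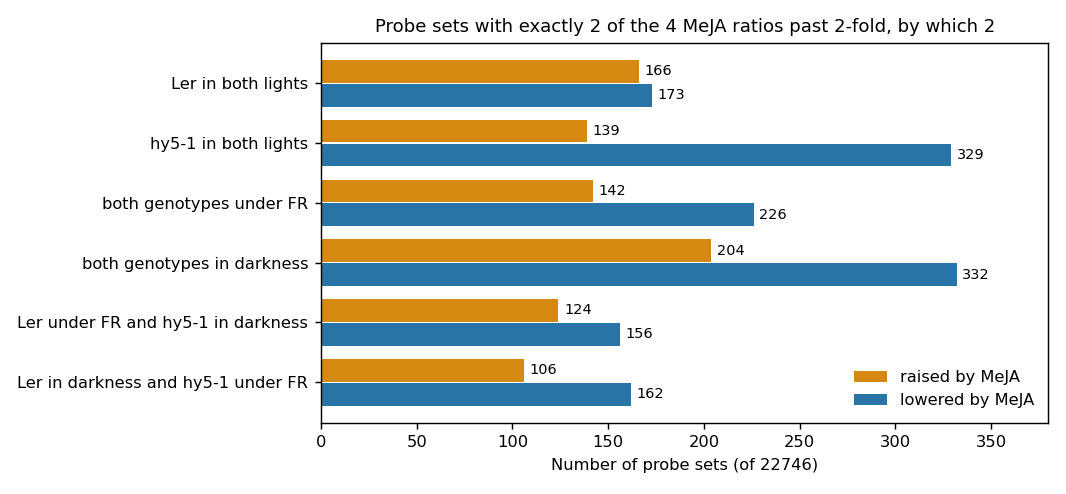
Number of probe sets (horizontal axis, of 22746) with exactly 2 of the 4 MeJA ratios past 2-fold, by which 2 ratios they were, for ratios raised and lowered with MeJA. The *hy5-1* pair had 329 lowered probe sets against 156 and 162 for the crossed pairs, while the *Ler* pair had 173. Both genotypes in darkness had 332 lowered and both under FR light 226.

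The amplitude difference can arise without MeJA, with it, or in both, since it equals the genotype difference at 50 μM minus that at 0 μM. In the lost raised set, the untreated arrays differed more: *hy5-1* exceeded *Ler* by a median of 1.06 under FR light and 1.00 in darkness without MeJA, and lay at -0.43 and -0.47 relative to *Ler* with MeJA. The untreated difference reached 2-fold in both lights in 54 of 166 members, the treated one in 26, and both did in 1. In the lost lowered set, the order was the other way: the median of *hy5-1* minus *Ler* was -0.31 and -0.46 without MeJA, and 0.82 and 0.72 with it. Here the treated arrays differed 2-fold in both lights in 43 of 173 members and the untreated ones in 29. The gained sets were more even, with medians of -0.56 and -0.62 without MeJA and 0.52 and 0.37 with it for the raised members. For the lowered members they were 0.40 and 0.58 without MeJA and -0.62 and -0.54 with it. In all 4 sets, the larger median gap under FR light was thus on the arrays where the responding genotype had its low value. In darkness the same held for both lost sets and for gained raised, but not for gained lowered. These differences use the same arrays as the rule and were not tested.

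**Figure D3:**
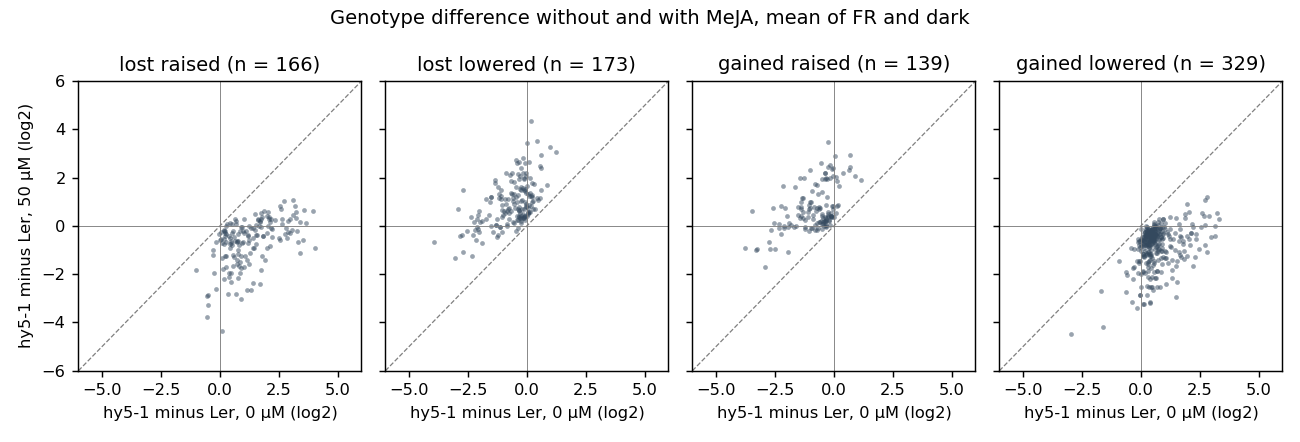
Log2 difference between genotypes, *hy5-1* minus *Ler*, without MeJA (horizontal axis) and with 50 μM MeJA (vertical axis), as the mean of FR light and darkness, with 1 point per member and equality as a dashed line. Lost raised members spread to the right along the horizontal axis, with 54 of 166 at least 2-fold apart without MeJA in both lights.

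Among the lost raised members with the highest scores, AT5G39070, AT1G68630, AT2G33420 and AT5G38195 differed between genotypes at least 2-fold without MeJA in both lights and by at most 2-fold with it. AT1G68630 read -3.67 in *Ler* without MeJA under FR light, against 0.36 with it, and -0.18 and 0.18 in *hy5-1*. In darkness it read -3.30 and 0.74 in *Ler*, and 0.25 and -0.25 in *hy5-1*. Both untreated *Ler* arrays were thus low and the other 6 arrays lay within 0.74 of 0, with a score of 3.67. The pseudogene AT5G39070 had the highest score of any named member, 4.3998, and the same form, with -3.34 and -4.22 on the untreated *Ler* arrays. The remaining leaders AT2G07620, AT3G15310, AT4G07620, AT2G33420 and AT5G38195 scored between 2.84 and 3.87, and AT2G07620, AT3G15310 and AT4G07620 are annotated as pseudogenes. AT2G07620 and AT4G07620 also had values that were equal at the bottom of a light's 4 arrays, as 11 of the 166 lost raised members did (6.63%, against 1.82% of all probe sets). The share was 3.47% in the lost lowered, 5.76% in the gained raised and 1.82% in the gained lowered set. It was 7.04% for ratios raised in both genotypes under FR light. Such values also occurred in AT4G07350, *AGL72*, AT3G55670, AT2G04600, AT4G14368 and AT4G16010, described below.

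Members with a symbol of their own were described in addition, a choice made after their values were seen. *PAP20*, a purple acid phosphatase gene, read -2.50 without and 0.96 with MeJA in *Ler* under FR light, and -4.30 and 1.33 in darkness. In *hy5-1* it read -0.37 and 0.37 under FR light and 0.35 and -0.35 in darkness. Its *Ler* ratios were 3.45 and 5.62, those in *hy5-1* 0.73 and -0.69, and the untreated *Ler* arrays were the 2 low ones. *TBL43*, of a family that holds polysaccharide acetyltransferases of the cell wall, had ratios of 3.98 and 1.97 in *Ler* and of 0.11 and 0.08 in *hy5-1*. *AGL104*, a MADS-box gene of pollen maturation, had ratios of 2.49 and 1.78 in *Ler* and of 0.66 and 0.39 in *hy5-1*. AT2G35310, also named *REM23*, had ratios of 1.26 and 1.23 in *Ler* and of -0.67 and -0.64 in *hy5-1*. In 2 pairs of neighbouring genes both were lost raised. AT2G04050 had *Ler* ratios of 2.39 and 3.00 and its neighbour AT2G04060 of 4.75 and 2.79. In *hy5-1* these were -0.33 and -0.92 for the first, and 0.24 and 0.988 for the second, close to the limit in darkness. AT3G22060 and AT3G22070 were the other pair, the first with *Ler* ratios of 1.38 and 2.59 and the second with 1.204 and 1.19. Their *hy5-1* ratios were -0.13 and 0.79 for the first and 0.83 and 0.79 for the second. AT3G22070 thus differed little between genotypes, with a score of 0.37.

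In the lost lowered set, *CLE40*, whose peptide acts on the stem cells of the root tip, read 0.18 without and -3.09 with MeJA in *Ler* under FR light, and -0.25 and -3.88 in darkness. In *hy5-1* it read 0.56 and -0.18 under FR light and 0.25 and 0.28 in darkness, so that only the treated *Ler* arrays were low. *XTH29*, of the xyloglucan endotransglucosylase/hydrolases that cut and rejoin wall polymers, had ratios of -1.74 and -2.23 in *Ler* and of 0.31 and -0.66 in *hy5-1*. *XTH21*, of the same family, had -2.29 and -1.92 in *Ler* and -0.30 and -0.51 in *hy5-1*. *EXLA2*, an expansin-like gene, had -1.54 and -1.47 in *Ler* and -0.70 and -0.75 in *hy5-1*, an amplitude difference below 1 in each light. These 3 were the members among the 33 probe sets of expansins, XTHs and pectin enzymes, and all 3 were lost lowered. That is 9.09% of the family, against 3.69% of all probe sets paired with 1 gene that belonged to any of the 4 sets. The MADS-box genes had the same share, with 4 of 44 probe sets in 3 of the sets: *AGL104* lost raised, *AGL72* and *AGL18* lost lowered, and *AGL89* gained raised. Many families had 0 members, among them cytochromes P450 (29 probe sets), defensins and small cysteine-rich peptides (31) and bHLH factors (18). With so few probe sets, each count of 0 is near the share of 3.69%. Some families, such as MYB and NAC factors, had only 0 or 1 probe set matched. The matching of families was incomplete, as it missed the AP2/ERF gene *HRD* and the bHLH gene *BPEp*, so each share covers only the matched probe sets.

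The lost lowered gene with the highest score among protein-coding genes was AT3G25880, with ratios of -2.89 and -3.21 in *Ler* and of 0.30 and 0.44 in *hy5-1*. Its treated *Ler* values of -3.02 and -3.08 stood apart from the other 6, which lay between -0.14 and 0.44. *GLC*, a gene of embryo and endosperm development, read 1.15 and 1.95 in untreated *Ler* and -0.28 and -0.18 with MeJA, against -0.53 and -0.49 without and 0.28 and 0.18 with MeJA in *hy5-1*. In *GLC* the untreated *Ler* arrays were thus the high ones, but another probe set of *GLC*, given below, was not lost lowered. *HRD*, an AP2/ERF transcription factor, had ratios of -2.03 and -2.82 in *Ler* and of 0.04 and -0.50 in *hy5-1*. *DELTA-VPE*, a vacuolar processing enzyme of the seed coat, had -1.40 and -1.51 in *Ler*, with *hy5-1* ratios of 0.0016 and 0.054. *GH3.9*, of the family that conjugates hormones with amino acids, had -1.16 and -1.05 in *Ler* and -0.14 and 0.38 in *hy5-1*. The MAP kinase gene *ATMPK13*, *CRR22* of chloroplast RNA editing and the MADS-box gene *AGL72* scored 1.59, 1.38 and 1.40. AT3G25280 (*NPF4.2*), *chr31*, the DNA damage tolerance gene *RAD5*, *AGL18*, the actin gene *ACT11* and the resistance-type gene *CSA1* scored below 1, from 0.97 down to 0.06. The remaining leaders by score were the pseudogene AT1G77820 (3.93), AT4G07350, AT4G26790, AT1G67790, AT1G49800 and AT5G04730 (2.59 to 2.87).

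In the gained raised set, *UGT84B1*, which encodes a glucosyltransferase that conjugates auxin, read -0.33 without and 0.15 with MeJA in *Ler* under FR light and 0.07 and -0.07 in darkness. In *hy5-1* it read -0.15 and 1.80 under FR light and -2.81 and 0.60 in darkness, which gave ratios of 1.95 and 3.41. The *hy5-1* array with MeJA was the high one under FR light, and that without MeJA was the low one in darkness. *UGT71B1* had ratios of 0.76 and 0.79 in *Ler* and of 1.22 and 1.04 in *hy5-1*, so its genotypes differed by 0.25 in the closer light. These were the 2 members among 51 probe sets of UDP-glycosyltransferases (3.92%, against 3.69% overall). *NRT2.5*, a high-affinity nitrate transporter gene of nitrogen-starved plants, had ratios of 0.08 and 0.31 in *Ler* and of 1.35 and 1.48 in *hy5-1*. Its *hy5-1* values were below those of *Ler* with and without MeJA, by 0.31 to 4.25.

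*ECS1*, a cell wall protein gene, read -1.31 and -2.73 in untreated *hy5-1* and 0.92 and 0.32 with MeJA, while the 4 *Ler* values lay between -0.32 and 0.37. *AGL89*, a MADS-box gene, had ratios of 0.78 and -0.63 in *Ler* and of 3.55 and 3.33 in *hy5-1*. AT3G55670 had *hy5-1* ratios of 3.73 and 3.83, with values of 3.48 and 3.52 in treated *hy5-1* and the other 6 within 0.31 of 0. AT1G48070 had ratios of -0.82 and -0.56 in *Ler* and of 2.43 and 2.88 in *hy5-1*, here with low untreated *hy5-1* values of -1.75 and -2.68. AT2G33160 had *hy5-1* ratios of 2.97 and 1.51 against 0.45 and 0.48 in *Ler*. *SDH1-2*, a succinate dehydrogenase subunit of the mitochondrial respiratory chain, and *scpl46*, a serine carboxypeptidase-like gene, scored 1.49 and 1.18. *GFAT* of amino sugar synthesis, *CRT1b* encoding a calreticulin of the endoplasmic reticulum and *PRXIIF* encoding a mitochondrial peroxiredoxin scored 0.55, 0.29 and 0.22, with *Ler* ratios from 0.53 to 0.98. For these 3 the response in *Ler* had the same sign as in *hy5-1* in both lights. The pseudogene AT2G04600, AT4G14368 and AT4G20160 completed the leaders by score (2.95, 2.56 and 2.33).

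In the gained lowered set, *BPEp*, a bHLH gene that limits petal size, had ratios of 0.56 and 0.93 in *Ler* and of -3.49 and -1.27 in *hy5-1*. It read -3.22 and -1.30 in treated *hy5-1*, and the other 6 values lay between -0.27 and 0.96. *INO*, a YABBY gene of the outer ovule integument, had -0.80 and -0.35 in *Ler* and -2.75 and -2.42 in *hy5-1*. *COR27*, a cold-regulated gene that also acts in the circadian clock and in light signalling, read 0.45 without and -0.45 with MeJA in *Ler* under FR light, and 0.41 and -0.41 in darkness. In *hy5-1* it read 0.72 and -1.32 under FR light and 0.80 and -0.81 in darkness. The *Ler* ratios of -0.90 and -0.83 were just within the limit, those of *hy5-1* were -2.04 and -1.60, and both genotypes thus had lower values with MeJA. *IAA20*, an Aux/IAA gene, had ratios of -0.20 and -0.74 in *Ler* and of -1.01 and -1.32 in *hy5-1*. *GH3.9* and *IAA20* were the 2 members among 12 probe sets of SAUR, Aux/IAA or GH3 genes (16.7%, against 3.69% overall), 1 lost and 1 gained.

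AT5G48280, which had the highest score of the set (3.33), had ratios of 0.37 and 0.92 in *Ler* and of -2.97 and -3.42 in *hy5-1*. Its untreated *hy5-1* values were 1.03 and 2.72 and its treated ones -1.94 and -0.70, so the *hy5-1* arrays were the highest and the lowest of each light. The remaining leaders AT1G59930, AT5G59330, AT5G64450, the pseudogene AT4G16010, AT5G15340 and AT4G29650 scored between 2.75 and 3.28. *HDA7* of the histone deacetylases scored 1.01. *OASA2* of cysteine synthesis, the chloroplast ribosomal protein gene *rps14*, the co-chaperone gene *Hop3*, *MCCA* of leucine breakdown, *TRM19*, *BGLU45*, a beta-glucosidase gene for monolignol glucosides, and *SOL1* scored from 0.89 down to 0.32. The *rps14* gene lies on the plastid chromosome and had ratios of -0.14 and -0.21 in *Ler* and of -1.81 and -1.06 in *hy5-1*. The neighbouring genes AT1G77890 and AT1G77910 were both gained lowered, with *hy5-1* ratios of -1.67 and -1.03 for a probe set of the first and of -3.67 and -1.02 for the second.

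**Figure D4:**
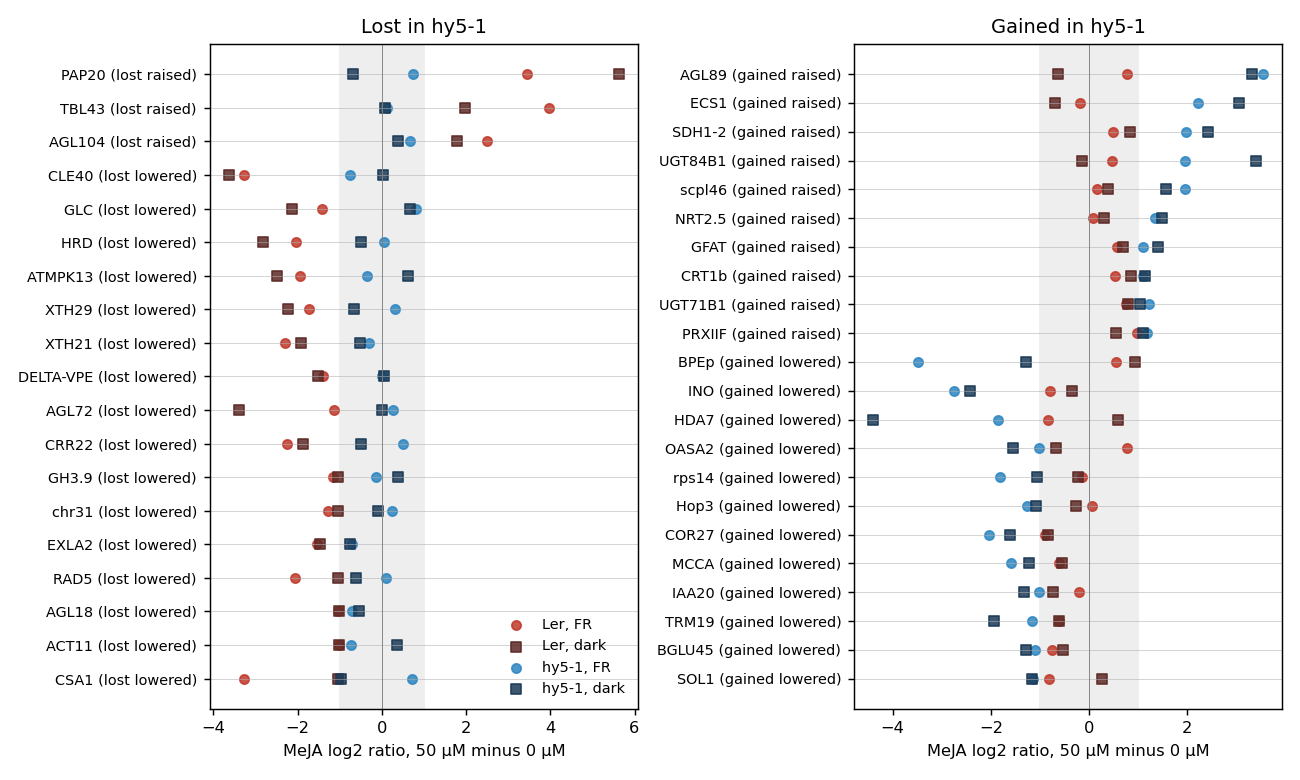
MeJA log2 ratios (horizontal axis, 50 μM minus 0 μM) of the members with a symbol of their own, in order of score within each set, with circles for FR light, squares for darkness and the range within 2-fold shaded. *PAP20* had *Ler* ratios of 3.45 and 5.62 and *hy5-1* ratios within 2-fold, whereas *UGT71B1* had ratios of 0.76 and 0.79 in *Ler* and of 1.22 and 1.04 in *hy5-1*.

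Some genes were read by more than 1 probe set, which gave a second reading on the same arrays. Of 494 member genes, 12 had several probe sets of their own. In 2 of them, AT2G30600 and AT1G77890, all probe sets were members of the same set. AT2G30600 had *hy5-1* ratios of -1.24 and -1.11 in 1 probe set and of -1.28 and -1.02 in the other, with *Ler* ratios from -0.35 to 0.27. In the other 10 genes, another probe set lay outside the set. The second probe set of *GLC* had ratios of 0.06 and -0.71 in *Ler* and of -0.77 and 1.84 in *hy5-1*. That of *chr31* had -1.52 and -0.05 in *Ler* and -2.37 and 0.22 in *hy5-1*. Neither of these showed a response lost in *hy5-1*. Which transcript each probe set reads was not tested.

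In a breakdown that was not planned, the lost raised probe sets paired with 1 gene differed in annotation from all such probe sets. Of the 104 lost raised probe sets paired with 1 gene, 23 (22.1%) were annotated as pseudogenes, against 7.36% of all 13436 such probe sets. The share was 7.00% in the lost lowered, 14.3% in the gained raised and 6.47% in the gained lowered set. High shares also occurred for raised ratios of both genotypes under FR light (18.0%) and of the crossed pairs (16.9% and 18.3%), which do not follow genotype, while probe sets raised in all 4 ratios had 3.33%. Chromosome 2 held 35 of the 104 lost raised genes (33.7%), against 16.4% of all named probe sets, and without pseudogenes 26 of 81 (32.1%) against 15.3%. In the other 3 sets chromosome 2 held 19.0%, 15.4% and 18.9%. The chromosome 2 genes included *TBL43*, *REM23*, AT2G33420 and the neighbours AT2G04050 and AT2G04060. Among the other patterns, the share on chromosome 2 reached 25.2% for ratios lowered in *Ler* under FR light and *hy5-1* in darkness, and 23.6% for ratios raised in both genotypes under FR light. Chromosomes are those of the RefSeq annotation of assembly TAIR10.1.

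**Figure D5:**
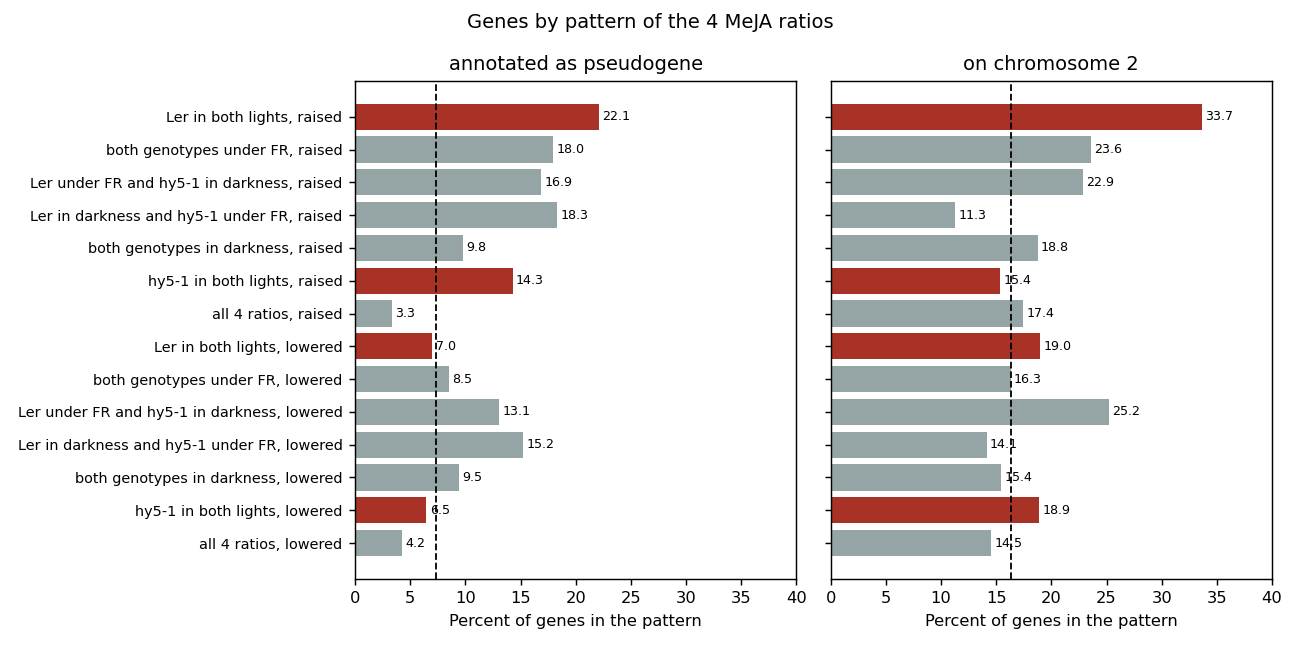
Percent of genes annotated as pseudogenes (left) and lying on chromosome 2 (right) for each pattern of the 4 MeJA ratios, with the patterns restricted to 1 genotype in red and the share of all named probe sets as a dashed line. The lost raised pattern (*Ler* in both lights, raised) has the longest bar in both panels, at 22.1% and 33.7%.

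The genotype difference averaged over both MeJA doses was the measure left that the rule does not fix. It gave 1 value under FR light and 1 in darkness for each probe set, which were tested against 0 with limma. No probe set passed an adjusted p of 0.05 (0% called), in the members or elsewhere, and the smallest adjusted p was 0.673. With 2 values per probe set and 1 residual degree of freedom before moderation, this says little about any gene. At an unadjusted p under 0.05, 1613 probe sets (7.09%) were found, and 47 of 166 lost raised, 44 of 173 lost lowered, 23 of 139 gained raised and 51 of 329 gained lowered members, or 28.3%, 25.4%, 16.5% and 15.5%. Of the 47 lost raised ones, 36 (76.6%) had higher values in *hy5-1*, as did 941 of the 1613 over all probe sets (58.3%). The members also varied more between the lights in this value, with a median absolute difference of 0.67, 0.64, 0.59 and 0.37 against 0.30 over all probe sets. A single low or high array enters both the rule and this average. The shares among members are therefore not independent of the rule, and the part of such arrays in them was not tested. Among the named members, *BPEp* had the mean *hy5-1* minus *Ler* difference of -1.31 ± 0.17 (moderated SE of limma, n = 2 lights) and *XTH29* of 2.15 ± 0.30. Neither was past the adjusted limit in limma. For *BPEp* the difference under FR light and in darkness was -3.50 and -2.26 with MeJA, against 0.55 and -0.05 without. For *XTH29* it was 3.59 and 2.51 with MeJA, against 1.55 and 0.93 without.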

How the data were processed

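The authors deposited log-scale values (taken as log2) of 8 ATH1 arrays, 1 per condition, made with MAS5 (the submitters' processing notes, no version) and GeneSpring GX (the study's methods). Neither the scaling nor the log base is given in the sources used here, so base 2 is an assumption. Each probe set is centred on the median of the 4 arrays of each light. Of 22810 probe sets, 64 controls were left out. The array annotation paired 13436 of the remaining 22746 with 1 gene and 503 with several, gave 77 a symbol but no locus, and does not list 8730, which stay unnamed. Arrays were grouped by their titles. The members and gene lists were chosen with earlier results of these data known. Named genes are the 7 with the highest score in each set, family members, neighbouring pairs in the gene order of coding genes and pseudogenes and probe sets at the limit. Genes with symbols were added later. Families were matched by symbol and synonym. The genotype value was fitted with limma 3.58.1 (R 4.3.3) without trend, with Benjamini-Hochberg adjustment over all probe sets, after the script had been tested on simulated data. A planned promoter motif search was not run, since no promoter sequences were used here. Alternatives changed the normalization, the fold limits and the lights used.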

Additional observations from a re-analysis of the deposited data

Results flagged for a closer look

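In 12 of the 83 member probe sets that are named, both ratios of 1 genotype lay on 1 side of 0 and both ratios of the other genotype on the other side. This difference was not tested, since each ratio rests on single arrays. Among all lost members, neither ratio of the other genotype pointed with the response in 29 of 166 raised and 23 of 173 lowered. Among gained members the same held for 21 of 139 raised and 43 of 329 lowered. The share of the named members was near these. The set counts include ratios of exactly 0, which the 12 do not, so the measures differ slightly. *DELTA-VPE*, 1 of the 12, had *hy5-1* ratios of only 0.0016 and 0.054. The scores of the lost raised genes AT5G39070, AT3G15310, AT2G04050 and AT2G35310 (*REM23*) were 4.3998, 3.74, 2.72 and 1.87. Those of the lost lowered genes AT1G77820, AT3G25880, *GLC* and *DELTA-VPE* were 3.93, 3.19, 2.25 and 1.40. Those of the gained raised genes AT1G48070 and *ECS1* were 3.25 and 2.42, and those of the gained lowered genes AT5G48280 and *BPEp* were 3.33 and 2.21.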

How the results depend on the processing

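The 4 counts are given in the order lost raised, lost lowered, gained raised, gained lowered. With the responding genotype at 3-fold they were 66, 51, 34 and 85. With the other genotype held within 1.5-fold they were 61, 63, 42 and 106. With a genotype difference of at least 1 in both lights they were 103, 90, 66 and 143. With FR light alone they were 1238, 1203, 1014 and 1578, and with darkness alone 1020, 1297, 1248 and 1986. Stricter limits and single lights differ from the rule by construction. The other planned settings (quantile normalization, equal array medians, natural logs, 1.5-fold for both limits, equal lowest values left out) kept each count within 1.5 times, but not its members. With 1.5-fold for both limits 61, 63, 42 and 106 members remained, and after quantile normalization 146, 164, 121 and 231. If the values were natural logs, 91, 88, 63 and 156 members would remain. The chromosome 2 and pseudogene shares of lost raised genes were not planned at any setting and were chosen after seeing the data. The chromosome 2 share was 45.2% (19 of 42) at 3-fold and 44.1% (30 of 68) with a difference of at least 1. It was between 29.5% and 30.9% under quantile normalization, equal array medians and without equal lowest values. The pseudogene share stayed between 18.6% and 28.6% under these 5 settings. The genotype test called 0 probe sets after adjustment in limma under each alternative, with 1514 to 1597 at an unadjusted p under 0.05. No named gene's score changed sign under quantile normalization or equal array medians. Every member's score is positive by the rule, so an unchanged sign says little about stability. Sizes did change: under quantile normalization, for example, AT2G07620 went from 3.87 to 3.37, AT1G77820 from 3.93 to 4.30 and *IAA20* from 0.58 to 0.38. Single arrays, centred values and an unknown signal level limit every ratio: dim and bright signals cannot be told apart.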
